A study of Mus musculus with 10 samples.

Results

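The genes described here are those of the voltage-gated sodium channels, the voltage-gated calcium channels and the hyperpolarization-activated HCN channels in the cortex of 5XFAD mice. They were chosen by symbol, as the protein-coding mouse genes named Scn with a number and a or b, Cacna or Cacnb, and Hcn with a number. In all, 36 genes matched, and 35 of them had at least 1 read, out of 24900 gene identifiers with a read. Scn4a, the sodium channel of skeletal muscle, had 0 reads among the 57717777 reads on genes, which allows a level of up to 0.052 CPM, the count scaled to a common library size (3 counts, counting error only).

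Gene expression was measured by QuantSeq 3′ mRNA sequencing in the cerebral cortex of female mice at 4 months of age. Every mouse carried the 5XFAD transgenes, human genes with familial Alzheimer's disease mutations under the neuronal Thy1 promoter, so no library is from a mouse without amyloid. The comparison set 5 libraries labelled Camk2a-cre cKO for Idol (5XFAD;Neu cKO) against 5 labelled WT (5XFAD), and it addresses what loss of neuronal Idol does to cortical expression in this model. Idol, the product of Mylip, is a ubiquitin ligase that targets lipoprotein receptors for degradation. The Camk2a promoter drives Cre mainly in forebrain excitatory neurons, so interneurons and glia of these mice are taken to keep Idol. The WT mice were 5XFAD littermates from crosses with floxed Idol and Camk2a-Cre lines. Their label does not say which gene WT refers to, and the study's single-nuclei figure spells WT out as wild type for Idol. Which floxed or Cre alleles each of them carried is not given further in the sources used here.

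Reads on genes ran from 4320504 to 7466192 in the 5XFAD libraries (median 5447069) and from 5148499 to 7246659 in the 5XFAD;Neu cKO libraries (median 5836912). Counts of the targeted gene, Mylip, were not lower in the libraries labelled as lacking neuronal Idol, and the difference did not pass the test. The level was 11.2 ± 2.27 CPM in libraries labelled 5XFAD (SD, n = 5) and 14.8 ± 4.90 CPM in those labelled 5XFAD;Neu cKO (SD, n = 5), a log2 difference of 0.39 (edgeR quasi-likelihood test, Benjamini-Hochberg adjusted p = 0.777). A 3′ read that lies outside the deleted part checks nothing, and where the deleted part lies was not given in the sources used here, so these counts neither check nor contradict the labels. The groups below are named by their labels. Idol was also assayed by qPCR in the study, which is not used here. Each library came from a separate mouse.

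Voltage-gated sodium channels carry the rising phase of the action potential, through a large pore-forming alpha subunit held at the membrane with beta subunits that also act in cell adhesion. Voltage-gated calcium channels couple depolarization to transmitter release, firing and gene expression; their alpha1 subunit forms the pore, and alpha2delta and beta subunits bring it to the membrane and tune its gating. HCN channels open on hyperpolarization, set the resting potential and shape how dendrites sum their inputs. In the cortex each class is built from several genes whose products sit in different cells and compartments.

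Of the 35 genes, 33 had more than 10 reads in total and were tested with the other genes of the table. None of the 33 passed an adjusted p of 0.05 (edgeR quasi-likelihood test, Benjamini-Hochberg), against 42 of 19268 genes tested, or 0.218%. DESeq2 also called 0 of the 33. At an unadjusted p under 0.05 there were 4 (12.1%, against 7.95% of all genes tested), 3 with lower values in libraries labelled 5XFAD;Neu cKO, Cacnb2 among them, and Cacnb4 with higher values. For 1 gene, Scn2b, the groups did not overlap (3.03%, against 1.3% of all genes). This was a log2 difference of below 0 for 20 of 33 (60.6%, against 50.1% of all genes), with a median of -0.07 beside a median near 0 (-0.00056) over all genes tested. These are bulk libraries, in which fewer cells of a type and less RNA per cell cannot be told apart.

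The absence of calls came with narrow intervals for the abundant channel genes. The 95% interval of the log2 difference lay within 0.5 of 0 on both sides for 23 of the 24 tested genes above 20 CPM, and for 23 of all 33. Within 1 of 0 lay 29 of 33. The median size of the difference, whatever its sign, was 0.138 on the log2 scale. Among the 14 genes above 100 CPM, the coefficient of variation within a group was 3.0 to 19.2%, whereas it was 10.8 to 68.9% among the 7 genes at 1 to 20 CPM.

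**Figure D1:**
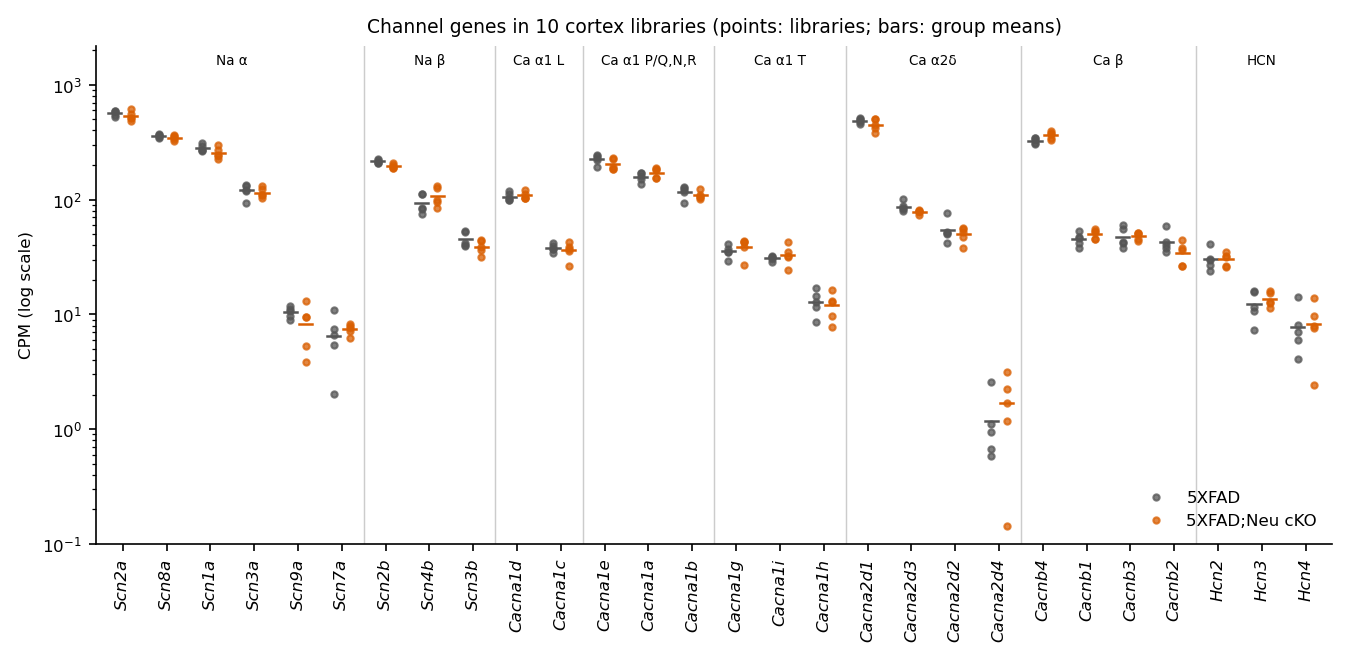
Level of each channel gene in each of the 10 libraries, in CPM on a log axis, for 28 genes with a read in every library, by class and group, with bars at the group means. Scn2a and Cacna2d1 lie highest, and the points of both groups overlap for every gene shown except Scn2b.

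A 3′ count does not grow with transcript length, so CPM can be set side by side between genes, apart from how well each gene's 3′ end is captured. Among the sodium channel alpha subunits, Scn2a, the channel of excitatory axons and early initial segments, had the highest level. Scn2a was at 591, 546, 578, 597 and 527 CPM in the 5XFAD libraries and at 612, 554, 516, 512 and 481 CPM in the 5XFAD;Neu cKO libraries. The ranges overlapped, and both the highest and the lowest library were 5XFAD;Neu cKO. The log2 difference was -0.09 (SE 0.08, 95% interval -0.24 to 0.06, adjusted p = 0.873, edgeR). Scn2a made up 42.0% of the summed CPM of alpha subunits on average over the 10 libraries, between 39.8 and 44.2%.

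Scn8a, which gathers at the axon initial segment and nodes of Ranvier, came next with 26.9% of that sum. It was at 359 ± 10.8 CPM in 5XFAD and 347 ± 17.5 CPM in 5XFAD;Neu cKO libraries (SD, n = 5 each), a log2 difference of -0.05 with a 95% interval from -0.20 to 0.10. Scn1a, the main channel of fast-spiking interneurons and the gene of Dravet syndrome, took 20.4% and was at 281 ± 19.7 CPM against 256 ± 29.1 CPM (SD, n = 5 each). Its log2 difference was -0.14 (95% interval -0.31 to 0.03, edgeR adjusted p = 0.753). Scn3a, best known from the developing brain, was at 120.2 ± 16.1 and 115 ± 11.3 CPM (SD, n = 5 each), or 8.99% of the sum. The order Scn2a, Scn8a, Scn1a, Scn3a was the same in every library, without overlap between neighbours.

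The other alpha subunits were rare. Scn9a, a channel of sensory neurons, was at 10.5 ± 1.16 CPM in 5XFAD and 8.28 ± 3.74 CPM in 5XFAD;Neu cKO libraries, and Scn7a, the sodium-sensing relative, at 6.53 ± 3.28 and 7.42 ± 0.803 CPM (SD, n = 5 each). For both the groups overlapped, and neither log2 difference had an edgeR adjusted p below 0.871. Scn10a had 20 reads in all, in 4 of the libraries, and its interval ran from -4.86 to 1.32. Scn11a had 9 reads, 5, 1 and 3 of them in 3 libraries labelled 5XFAD;Neu cKO and 0 in every 5XFAD library, and was below the filter. Scn10a and Scn11a are channels of pain-sensing neurons.

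The sodium channel genes lie in clusters. On chromosome 2 of GRCm39, Scn3a, Scn2a, Scn1a, Scn9a and Scn7a lie between 65287462 and 66615367, with Scn2a alone on the plus strand. On chromosome 9, Scn10a and Scn11a share the stretch from 119435988 to 119654522. Levels within the chromosome 2 cluster thus spanned from the most abundant sodium channel gene of these cortices to some of the rarest. The beta subunit genes Scn2b (45029080 to 45041368) and Scn4b (45049595 to 45065452) are neighbours on chromosome 9, both on the plus strand.

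The beta subunits held the gene whose groups did not overlap. Scn2b, a beta subunit that is itself cut by the secretases that process APP, was at 209.9, 227, 211, 210.3 and 223 CPM in 5XFAD and at 209.6, 189, 202, 194 and 187 CPM in 5XFAD;Neu cKO libraries. The groups were apart by 0.3 CPM, the distance between the first replicate of each. This was a log2 difference of -0.14 (SE 0.08, 95% interval -0.31 to 0.03, edgeR adjusted p = 0.748).

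Scn3b was at 45.5 ± 6.77 CPM in 5XFAD and 39.0 ± 5.39 CPM in 5XFAD;Neu cKO libraries (SD, n = 5 each), and its log2 difference was -0.22 (95% interval -0.50 to 0.06, edgeR adjusted p = 0.780). Scn4b, which supplies the blocking particle of resurgent sodium current and is abundant in striatum, stood the other way. It was at 93.7 ± 17.8 against 108 ± 20.7 CPM (SD, n = 5 each), a log2 difference of 0.20 (95% interval -0.04 to 0.43, edgeR adjusted p = 0.744). The make-up of the beta class varied between libraries with Scn4b, which took 13.4 to 26.1% of the summed beta CPM, while Scn2b took 40.1% on average. Summed over the class, alpha subunit CPM was 1293 to 1408 in 5XFAD (median 1367) and 1178 to 1383 in 5XFAD;Neu cKO libraries (median 1288), with an overlap of the ranges. Of the 12 sodium channel genes tested, 10 had a log2 difference below 0 (83.3%, against 50.1% of all genes), with a median of -0.14. Scn10a, with 20 reads in all, is among the 10. Genes read in the same libraries can move together, and a shift of the class was not tested.

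**Figure D2:**
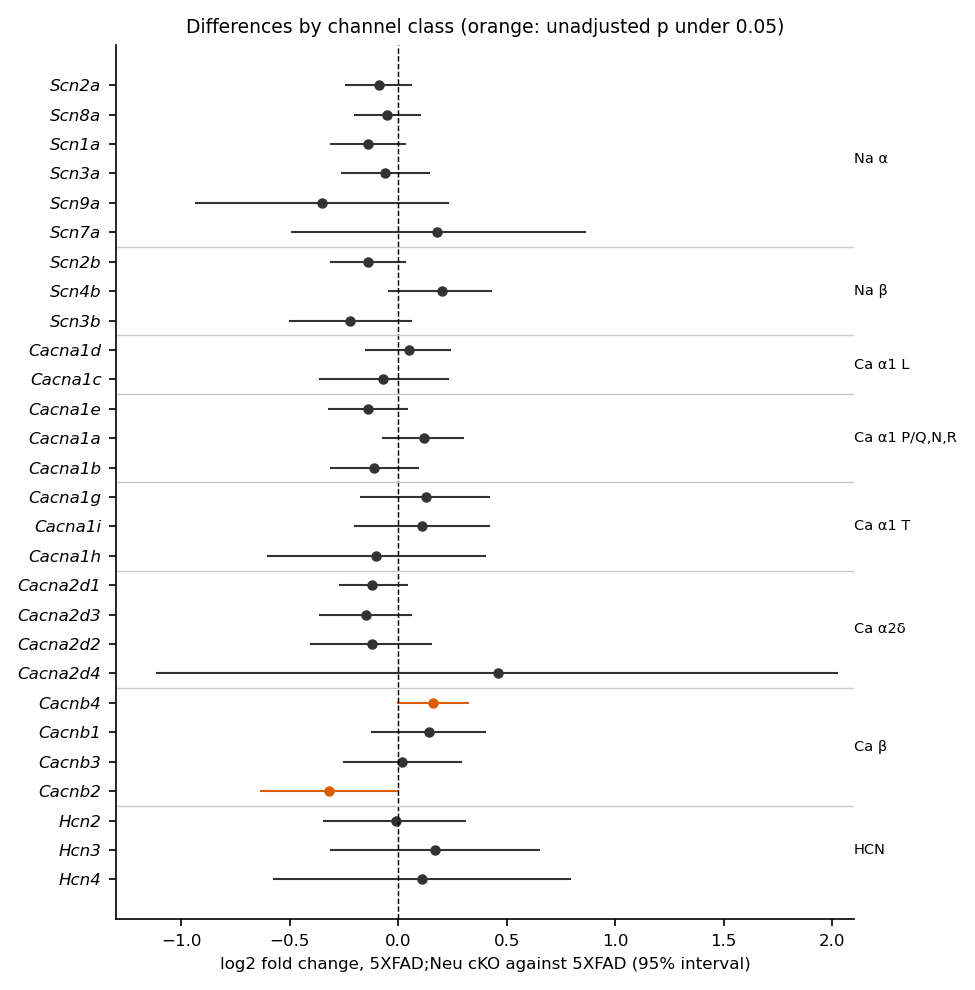
Log2 difference of 5XFAD;Neu cKO minus 5XFAD libraries for 28 channel genes with a read in every library, with its 95% interval from the edgeR fit, by class. The genes in orange (Cacnb2 and Cacnb4) had an unadjusted p under 0.05 and neither passed adjustment; the widest interval drawn belongs to Cacna2d4, which had 84 reads in all.

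Among calcium channel alpha1 subunits, the presynaptic P/Q-, N- and R-type genes were the most abundant. Cacna1e, the R-type pore, was at 241, 244, 192, 232 and 221 CPM in 5XFAD and at 231, 228, 185, 186 and 194 CPM in 5XFAD;Neu cKO libraries. In the latter group 3 libraries lay near the single low 5XFAD library, replicate 3, and 2 lay among the rest. The log2 difference was -0.14 (SE 0.09, 95% interval -0.32 to 0.04, edgeR adjusted p = 0.771). Cacna1a, the P/Q-type pore that triggers release at most cortical synapses, was at 159 ± 14.0 and 172 ± 17.2 CPM (SD, n = 5 each), with a log2 difference of 0.12 (95% interval -0.07 to 0.30). Cacna1b, the N-type pore, was at 118 ± 14.1 and 109 ± 8.44 CPM (SD, n = 5 each), with a log2 difference of -0.11 (95% interval -0.31 to 0.09). Of all alpha1 CPM, Cacna1e took 29.9%, Cacna1a 23.0% and Cacna1b 15.7% on average. The L-type gene Cacna1d took 15.0%, and its range over the libraries (13.5 to 17.7%) overlapped that of Cacna1b (13.7 to 17.7%).

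The L-type pores, which link activity to gene expression, were led by Cacna1d. It was at 103, 98.5, 98.5, 111 and 118 CPM in 5XFAD and at 103, 104, 122, 103 and 113 CPM in 5XFAD;Neu cKO libraries, ranges that overlapped almost fully. The groups differed by a log2 value of 0.05 (SE 0.10, 95% interval -0.15 to 0.24, edgeR adjusted p = 0.969). Cacna1d took 74.3% of L-type CPM and Cacna1c 25.5%, the latter at 37.7 ± 2.77 and 36.1 ± 6.02 CPM (SD, n = 5 each). Cacna1s, the skeletal muscle pore, had 15 reads in all. Cacna1f, the retinal pore, had 2 reads, in 5XFAD;Neu cKO replicate 3, and was below the filter.

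The T-type pores open near rest and support burst firing. Cacna1g, the highest of them, was at 29.3, 35.0, 41.0, 37.1 and 34.8 CPM in 5XFAD and at 42.6, 26.9, 42.4, 43.2 and 38.6 CPM in 5XFAD;Neu cKO libraries. The second 5XFAD;Neu cKO replicate was below every other library, and 3 of that group were above every 5XFAD library. This was a log2 difference of 0.13 (SE 0.15, 95% interval -0.17 to 0.42, edgeR adjusted p = 0.926). Cacna1i was at 30.8 ± 1.51 and 33.2 ± 6.61 CPM (SD, n = 5 each), and Cacna1h ranged from 8.56 to 17.1 CPM in 5XFAD and from 7.75 to 16.4 CPM in 5XFAD;Neu cKO libraries. Cacna1g and Cacna1i overlapped in level, and Cacna1h lay below both in every library.

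The alpha2delta class was mostly Cacna2d1, which encodes the gabapentin-binding subunit and took 77.4% of the class. Cacna2d1 was at 512, 494, 502, 471 and 459 CPM in 5XFAD and at 505, 444, 419.6, 500.1 and 382 CPM in 5XFAD;Neu cKO libraries. The 5XFAD;Neu cKO libraries spread more widely, with 3 of them below every 5XFAD library and 2 inside the upper part of the 5XFAD range. The log2 difference was -0.12 (SE 0.08, 95% interval -0.27 to 0.04, edgeR adjusted p = 0.808). Cacna2d3 was at 87.0 ± 8.91 and 78.4 ± 3.04 CPM (SD, n = 5 each), with a log2 difference of -0.15 (95% interval -0.36 to 0.06, edgeR adjusted p = 0.827). Cacna2d2 was at 54.4 ± 13.2 and 49.8 ± 7.53 CPM, and Cacna2d4 at 1.18 ± 0.812 and 1.68 ± 1.12 CPM (SD, n = 5 each). Cacna2d4 overlaps Lrtm2 on the opposite strand, and Lrtm2 had 4510 reads against 84 for Cacna2d4, so the Cacna2d4 value is uncertain where counting ignored strand. Class sums were 594 to 659 CPM (median 634) in 5XFAD and 501 to 638 CPM (median 581) in 5XFAD;Neu cKO libraries.

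The calcium channel beta subunits bind the pore inside the cell and carry it to the membrane. Cacnb4, the gene of the lethargic mouse, was at 311, 345, 333, 343 and 302 CPM in 5XFAD and at 345, 374, 332, 394 and 382 CPM in 5XFAD;Neu cKO libraries. In the latter group 3 libraries were above every 5XFAD library, and replicates 1 and 3 fell within the 5XFAD values or at their top. The groups differed by a log2 value of 0.16 (SE 0.08, 95% interval 0.00 to 0.32), with an unadjusted p of 0.0442 and an adjusted p of 0.613 by edgeR's quasi-likelihood test, and the exact permutation p was 0.0476. It took 71.9% of beta subunit CPM.

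Cacnb2 was at 42.6, 37.8, 35.0, 40.1 and 59.2 CPM in 5XFAD and at 26.5, 44.7, 37.7, 26.4 and 36.6 CPM in 5XFAD;Neu cKO libraries. Replicates 1 and 4 of 5XFAD;Neu cKO were low, replicate 5 of 5XFAD was high, and the rest overlapped. This was a log2 difference of -0.32 (SE 0.16, 95% interval -0.63 to -0.00), with an unadjusted p of 0.0473 and an adjusted p of 0.623 by edgeR's quasi-likelihood test, and the exact permutation p was 0.167. Without the fifth 5XFAD replicate the log2 difference was -0.17 (edgeR adjusted p = 0.877). In the annotation, 11 other counted genes with 937 reads in all overlap Cacnb2, which had 2202 reads. Cacnb1 was at 45.6 ± 5.96 and 50.3 ± 4.47 CPM and Cacnb3 at 47.5 ± 9.52 and 48.1 ± 3.69 CPM (SD, n = 5 each), and Cacnb1, Cacnb2 and Cacnb3 overlapped in level. Over the 17 calcium channel genes tested, 9 had a log2 difference above 0 and 8 below (47.1%, against 50.1% of all genes), with a median of 0.02.

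Of the HCN genes, Hcn2 was at 30.5 ± 6.49 and 30.2 ± 4.06 CPM, Hcn3 at 12.2 ± 3.64 and 13.6 ± 2.04 CPM, and Hcn4, the pacemaker subunit of heart and thalamus, at 7.82 ± 3.79 and 8.29 ± 4.14 CPM in 5XFAD and 5XFAD;Neu cKO libraries (SD, n = 5 each). The 95% interval of the log2 difference was -0.34 to 0.31 for Hcn2 and -0.57 to 0.79 for Hcn4. Hcn3 and Hcn4 overlapped in level.

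**Figure D3:**
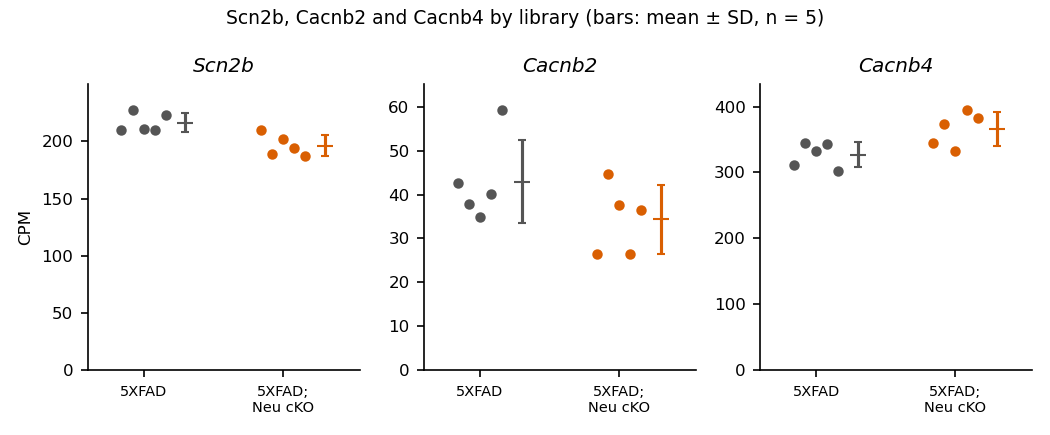
CPM of Scn2b, Cacnb2 and Cacnb4 in each library of both groups, with points for libraries and bars for the mean ± SD (n = 5). The Scn2b points of the groups are separated by 0.3 CPM, and those of Cacnb2 and Cacnb4 overlap.

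**Figure D4:**
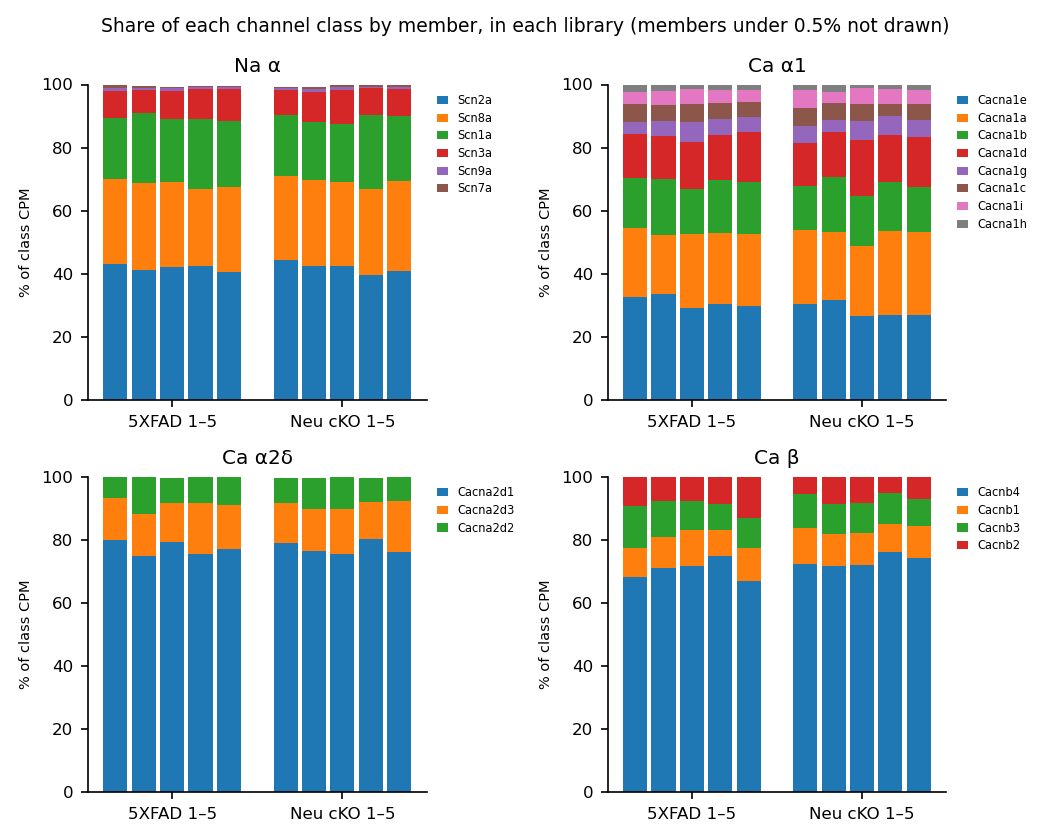
Share of each gene in the summed CPM of 4 classes (sodium channel alpha, and calcium channel alpha1, alpha2delta and beta), in percent, as stacked bars for each of the 10 libraries, without genes under 0.5% of their class. Scn2a, Cacna2d1 and Cacnb4 are the largest part of their class in every library.

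Sequence around an annotated start could be read for 25 of the 35 genes, from RefSeq windows on GRCm38.p6. Each window runs from upstream of 1 annotated start into the first bases after it. A window can therefore hold transcribed bases of a transcript that starts elsewhere, and which windows act as promoters was not tested. Some genes had more than 1 window, for other starts, and only the most upstream was used. Cacnb2 had 2 windows, Cacnb4 had 3 and Scn2b had 1. Of the genes with an unadjusted p under 0.05 or groups apart, the table held Cacnb2, Cacnb4 and Scn2b. They are shown by that rule, and the capitals mark each CG dinucleotide, 35 in Cacnb2 (chr2:14604056-14604355, plus strand), 40 in Cacnb4 (chr2:52676094-52676393, minus strand) and 2 in Scn2b (chr9:45117626-45117925, plus strand). The Cacnb4 window holds a start codon followed by an open reading frame, so part of its 40 CG may lie in transcribed sequence.
Cacnb2: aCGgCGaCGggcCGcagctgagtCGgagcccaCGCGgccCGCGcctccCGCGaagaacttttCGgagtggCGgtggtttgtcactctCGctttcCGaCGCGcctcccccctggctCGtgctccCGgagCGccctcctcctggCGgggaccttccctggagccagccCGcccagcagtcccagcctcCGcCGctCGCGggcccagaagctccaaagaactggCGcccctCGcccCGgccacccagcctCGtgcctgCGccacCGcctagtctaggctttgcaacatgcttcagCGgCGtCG
Cacnb4: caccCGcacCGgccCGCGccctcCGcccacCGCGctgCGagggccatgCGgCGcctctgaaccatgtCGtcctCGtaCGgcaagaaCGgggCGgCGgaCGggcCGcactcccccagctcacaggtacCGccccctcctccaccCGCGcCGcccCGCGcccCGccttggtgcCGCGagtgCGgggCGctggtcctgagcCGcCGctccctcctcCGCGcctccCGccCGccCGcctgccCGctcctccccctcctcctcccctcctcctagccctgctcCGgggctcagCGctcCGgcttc
Scn2b: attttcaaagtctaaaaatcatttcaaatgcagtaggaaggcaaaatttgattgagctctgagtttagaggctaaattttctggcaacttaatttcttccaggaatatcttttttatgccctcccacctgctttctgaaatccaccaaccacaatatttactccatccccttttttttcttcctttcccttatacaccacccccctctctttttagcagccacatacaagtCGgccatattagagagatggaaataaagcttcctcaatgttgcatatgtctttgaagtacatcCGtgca

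Over the 25 windows, 12 (48.0%) held 20 or more CG dinucleotides, against 26.8% of the 27025 genes in the table. Of the 14 calcium channel windows 8 did, with a median of 28.5, and of the 9 sodium channel windows 2 did, those of Scn8a and Scn4b, with a median of 5. The GC-box letters GGGCGG, searched on both strands and themselves holding a CG, occurred in 10 of 14 calcium channel windows and 1 of 9 sodium channel windows, against 35.9% of all genes. These are counts of letters in a window and no sites of binding.

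Genes taken as partners of these channels were listed as well. The list held gamma subunits (of AMPA receptors or calcium channels), FGF homologous factors, axon initial segment scaffolds, and auxiliary genes of HCN and NALCN. It also held Nalcn itself and Cabp1, Stac2, Nedd4l, Rimbp2, Dpysl2 and Cntn1. Of 27 tested, 10 had a log2 difference above 0 and 17 below (50.1% of all genes were below), with a median of -0.04. None passed adjustment in edgeR, and 3 of the 27 had an unadjusted p under 0.05, beside 7.95% of all genes tested. Dpysl2, which encodes a collapsin response mediator that binds N-type calcium channels, was at 212 ± 34.2 CPM in 5XFAD and 267 ± 20.4 CPM in 5XFAD;Neu cKO libraries (SD, n = 5 each), the largest positive difference at 0.33 (edgeR adjusted p = 0.142). Ank3, the ankyrin that anchors sodium channels at the axon initial segment, was at 926 ± 69.1 and 826 ± 44.3 CPM (SD, n = 5 each), a difference of -0.17 (edgeR adjusted p = 0.504). Pex5l, whose product TRIP8b is the auxiliary subunit that sorts HCN channels in dendrites, was at 88.8 ± 4.03 and 75.9 ± 7.32 CPM (SD, n = 5 each), a difference of -0.23 (edgeR adjusted p = 0.587). The largest negative difference was that of Nalf2, at -0.26 (edgeR adjusted p = 0.889).

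Marker lists were summed in CPM to stand beside these values, and a sum is no measure of cell numbers. The most abundant gene weighs most in it. Camk2a had a mean of 1823 CPM over the 10 libraries in the excitatory neuron list, and Slc1a2 2962 CPM in the astrocyte list. The excitatory neuron list summed to 2199 to 2656 CPM in 5XFAD and 2215 to 2548 CPM in 5XFAD;Neu cKO libraries, and the inhibitory neuron list to 301 to 441 and 377 to 461 CPM, each with 0 members called by edgeR and 1 at an unadjusted p under 0.05. Of 5 parvalbumin interneuron genes, 4 had a difference below 0 and Syt2 fell (log2 difference -0.61, edgeR adjusted p = 0.0388), with sums of 368 to 449 and 350.1 to 379 CPM. Pvalb itself stood the other way, at 33.5 ± 10.7 CPM in 5XFAD and 37.0 ± 6.0 CPM in 5XFAD;Neu cKO libraries (SD, n = 5 each). Its log2 difference was 0.15 (edgeR adjusted p = 0.909). All 10 microglia genes had a difference below 0 and 4 fell (Csf1r, Cx3cr1, C1qb and Tyrobp), with sums of 332 to 487 and 253 to 296 CPM. In oligodendrocytes 8 of 8 were below 0 and 0 called (4 at an unadjusted p under 0.05, edgeR), with sums of 1956 to 2893 and 1766 to 2798 CPM. In astrocytes 7 of 8 were below 0 and Gfap fell, with sums of 4135 to 4818 and 4038 to 4605 CPM. Genes of the striatum, where Scn4b is also abundant, summed to 905 to 1170.5 and 836 to 1258 CPM, with 0 of 8 called and 0 at an unadjusted p under 0.05 in edgeR.

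Hypothalamic peptide genes summed to 16.2 to 108 CPM in 5XFAD and 2.87 to 33.7 CPM in 5XFAD;Neu cKO libraries, and Oxt fell. Thalamic genes summed to 213 to 249.6 and 205 to 259 CPM, hippocampal genes to 79.2 to 103 and 62.6 to 92.5 CPM, and choroid plexus genes to 31.1 to 71.2 and 13.0 to 140.5 CPM. Oligodendrocyte precursor genes summed to 75.9 to 90.9 and 68.0 to 92.4 CPM, and endothelial genes to 222 to 310.4 and 253 to 284 CPM. No gene of the last 5 lists passed adjustment in edgeR, and 1 thalamic gene was at an unadjusted p under 0.05. The part of these shifts in the values of the channel genes was not tested.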

How the data were processed

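RNA from the cortex of 10 mice was made into QuantSeq 3′ FWD libraries. The authors aligned reads to GRCm39 with STAR and counted them per Ensembl gene with HTSeq; the deposited values are raw counts, and the strand setting is not given in the sources used here. Of the 35 channel genes, 10 overlap another counted gene, so their counts are less certain. Rows that name no gene were left out of library sizes. Reads without a feature were 31.3 to 39.9% of the reads that were on genes, ambiguous or without a feature. Symbols came from GENCODE vM39. Genes with 10 or fewer reads in total were removed, libraries were scaled by TMM, and groups were compared with edgeR 4.0.16 in R 4.3.3 (quasi-likelihood test, Benjamini-Hochberg over all genes tested, threshold 0.05). CPM are TMM-scaled. Exact two-sided permutation tests over the 252 relabellings of the libraries were run on log2 CPM. DESeq2 1.42.0, other filters and scalings, a replicate block and leaving out each library were alternatives. Scripts were tested on simulated counts. Depth limits precision, and floors cover counting error only. Some genes and their values are not reported here. Values in every library are given for those with an adjusted or unadjusted p under 0.05, those whose groups do not overlap and the most abundant of each class. Partner genes are named by an unadjusted p under 0.05 or the largest difference in each direction. The members and lists were chosen with earlier results of these data known.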

Additional observations from a re-analysis of the deposited data

Results flagged for a closer look

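In 4 of 66 groups of 5 libraries, 1 library lay far from the other 4 by Dixon's test, which chance alone gives in about 1 in 20 groups. Cacna1g was at 26.9 CPM in the second 5XFAD;Neu cKO replicate, with the others at 38.6 to 43.2 CPM. Cacna2d2 was at 77.0 CPM in the second 5XFAD replicate, with the others at 42.2 to 52.3 CPM. Cacna2d4 was at 2.58 CPM in the third 5XFAD replicate, with the others at 0.581 to 1.12 CPM. Scn10a was at 0.748 CPM in the first 5XFAD;Neu cKO replicate and had 0 reads in the other 4.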

How the results depend on the processing

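No channel gene passed adjustment under any alternative run. Of 558 log2 differences recomputed, 538 kept their direction and 20 reversed, in 8 genes. Over all genes, 42 calls became 73 with DESeq2, 103 without a filter and 26 to 72 when 1 library was left out (26 without the second 5XFAD and 72 without the first 5XFAD;Neu cKO replicate, 27 without the fourth or the fifth 5XFAD;Neu cKO replicate). Channel genes at an unadjusted p under 0.05 numbered 1 to 5 when 1 library was left out (1 without the fifth 5XFAD replicate, and 2 without the first 5XFAD or the second 5XFAD;Neu cKO replicate). Cacnb2 was under 0.05 unadjusted in 11 of 17 alternatives (edgeR or DESeq2 adjusted p 0.497 to 0.877) and Cacnb4 in 10 (0.278 to 0.833). The median log2 difference of the HCN class was -0.119 to 0.121 when 1 library was left out, and the reversed genes ranged from -0.0862 to 0.120 (Hcn2), -0.533 to 0.721 (Cacna1s), -0.164 to 0.418 (Hcn4), -0.239 to 0.0231 (Cacna1h), -0.203 to 0.0278 (Cacna2d2), -0.0557 to 0.116 (Cacnb3), -0.0399 to 0.451 (Scn7a) and -0.133 to 0.0277 (Cacna1c). The cause was not tested.

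Deviations of same-numbered libraries correlated at -0.06 to 0.04, and for none of the 5 numbers was the same-numbered library the closest match, so the numbers were not taken as pairs. With a replicate block 112 genes were called, again with 0 channel genes, and Hcn2 (0.00161) and Cacna1s (-0.0539) reversed.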
